A study of Mus musculus with 3 samples.

Results

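Sites bound by both Tbr2 and Neurog2 in the embryonic mouse cortex differ in how strongly each factor is represented. The sites described here are those at which the Neurog2 peak held at least as many sequence tags as the Tbr2 peak it overlapped. Tags are sequenced fragments counted within a peak. Each Neurog2 peak on chromosomes 1 to 19 was paired with the Tbr2 peak it overlapped by 1 bp or more, and pairs with a Tbr2 peak of 1200 bp or wider were left out. Of 2571 autosomal Neurog2 peaks, 2122 overlapped a Tbr2 peak, and none of them overlapped more than 1. The width limit left 1712 pairs. In 256 of these, 15.0% (95% Wilson interval 13.3 to 16.7, counting error over sites only), Neurog2 tags equalled or exceeded Tbr2 tags. They are called Neurog2-rich sites below, and the other 1456 pairs the remaining shared sites.

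The lists come from chromatin immunoprecipitation followed by sequencing (ChIP-seq) of cerebral cortices from C57BL/6 mouse embryos at stage E14.5, with no allele or treatment named in the labels. There was 1 library with an antibody against Tbr2, 1 with an antibody against Neurog2 and 1 of input chromatin with no antibody, and all were fixed with disuccinimidyl glutarate and then formaldehyde. Whether tissue of several embryos was pooled is not given in the sources used here. With 1 library per factor there is no replicate error, no test between conditions was possible, and every value below describes these lists. Library depths are unknown and tags are not scaled for them. A ratio of Neurog2 to Tbr2 tags therefore orders sites against each other and does not measure which protein was more abundant at a site.

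Neurog2 is a proneural basic helix-loop-helix transcription factor. It pairs with E proteins, binds E-box sequences and drives cortical progenitors towards a glutamatergic neuronal fate. Tbr2, the product of the Eomes gene, is a T-box transcription factor that is switched on as radial glia give rise to intermediate progenitors, and Eomes itself is a known target of Neurog2. The factors thus act one after the other, and partly together, in the same lineage. Sequences and gene models of the genome build of the lists, mm9, were not used here, so sites are given by position, counted from 1, without gene names, motifs or sequence.

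The sites were chosen by the tag numbers of both factors and the width of the Tbr2 peak, so these values are given first, as a description. At Neurog2-rich sites the Neurog2 peak held 22 to 179 tags, with a median of 48, and the Tbr2 peak 19 to 126, with a median of 37. At the remaining shared sites the medians were 28 for Neurog2 and 68 for Tbr2. Over the whole lists the medians were 30 and 38. The Tbr2 peaks of the Neurog2-rich sites were thus about as full as Tbr2 peaks in general, and less full than those of other shared sites, while their Neurog2 peaks were fuller than both. The cloud of sites in the plot of both tag numbers runs across the line of equal tags without a gap.

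**Figure D1:**
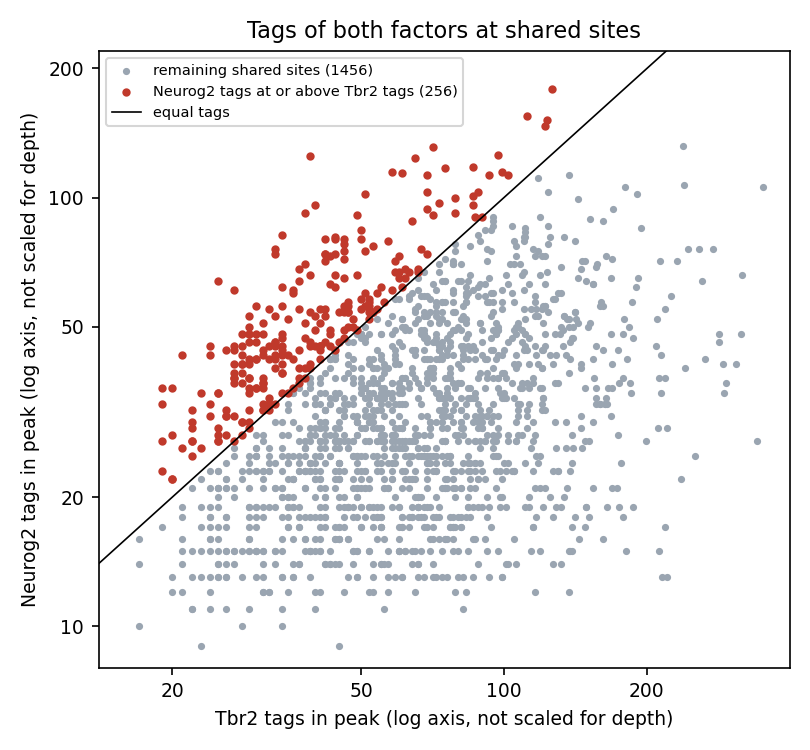
Neurog2 tags (vertical log axis) against Tbr2 tags (horizontal log axis) in each of 1712 autosomal shared sites, with 1 point per site. The 256 red points lie on or above the line of equal tags by construction, and grey points fill the area just below it.

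Neurog2 peaks with many tags met the condition more often, as the rule itself favours. None of 349 pairs with 9 to 19 Neurog2 tags did. The share was 4.30% at 20 to 29 tags (19 of 442), 26.0% at 40 to 59 (102 of 393) and 58.2% at 80 to 179 (39 of 67). Of the pairs whose Tbr2 peak held 17 to 29 tags, 43.6% (68 of 156) were Neurog2-rich. Of the pairs whose Tbr2 peak held 100 to 352 tags, 1.52% (5 of 329) were.

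The ratio of Neurog2 to Tbr2 tags was modest at most of the 256 sites. Its median was 1.24, with an interquartile range of 1.10 to 1.505 and a maximum of 3.21. In 13 sites the numbers were equal, in 65 the ratio was at least 1.5, and in 10 it was at least 2. The tags that set the ratio differed between its classes on both sides. The 92 sites with a ratio above 1 and below 1.2 had medians of 46 Neurog2 and 42.5 Tbr2 tags, and the 86 sites from 1.2 to below 1.5 had 44.5 and 33.5. The 55 sites from 1.5 to below 2 had medians of 61 and 36, and the 10 sites at 2 or more 79 and 33.5. Between the first and second classes Tbr2 tags were lower, and from the second upwards Neurog2 tags were higher.

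At the threshold the sites differed by single tags. Among the 13 with equal numbers, the peaks at chr7:133152275-133152697 held 90 tags of each factor and those at chr11:49081406-49081685 held 27 of each. Just outside the rule, 20 pairs lacked 1 Neurog2 tag. The 5 of these with the highest ratios were chr8:92768664-92769064 (78 Neurog2 and 79 Tbr2 tags), chr1:178924765-178925196 (67 and 68), chr1:135959779-135960255 (65 and 66), chr14:41769259-41769596 (58 and 59) and chr8:125298971-125299411 (50 and 51). A change of 1 tag would be enough to move any of these pairs into or out of the set.

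The authors' fold changes, which relate a peak to its background, come from the same libraries as the tags and are likewise a description. The median Neurog2 fold change at Neurog2-rich sites was 13.5 (range 3.86 to 38.4) and the median Tbr2 fold change 8.17 (3.72 to 34.2). At the remaining shared sites they were 11.8 and 14.1. The Neurog2 fold change was the higher of the pair in 242 of the 256 sites. Over all 1712 pairs it was higher in 46.3%, so fold changes placed many more shared sites on the Neurog2 side than tags did. The 14 exceptions had ratios of tags between 1 and 1.32, and the lowest ratio of fold changes, 0.663, was at the chr7 site with 90 tags of each factor, where the Neurog2 fold change was 13.6 and that of Tbr2 20.6.

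The places of the peaks in their lists follow from p-values of the same libraries, so they too are set in large part by the choice of sites and are given as a description. When each list was ordered by p-value, 74 of the 256 Neurog2 peaks, 28.9%, were in the first 10% of the 2640 listed peaks, against 10.4% of all 1712 pairs. Most peaks of that first 10% were thus not Neurog2-rich sites, which made up 28.0% of its 264 peaks. The remaining shared sites made up 39.4% (104), and pairs with a Tbr2 peak of 1200 bp or wider 31.1% (82). Of the Tbr2 partners, 6 (2.34%) were in the first 10% of the 14539 listed Tbr2 peaks, against 24.2% of all pairs, and 165 (64.5%) lay below the middle of that list, against 24.0%. Only 22 of the Neurog2 peaks (8.59%) lay below the middle of theirs, against 46.7%. The median place of the Tbr2 partner was 9116. The lists end at different p-values, 9.98e-06 for Tbr2 and 8.65e-07 for Neurog2. In 55 of the 256 sites, 21.5%, the Tbr2 peak had a p-value above the largest Neurog2 p-value. The same held for 39 of the 1456 remaining shared sites, 2.68%, and for 15.4% of the whole Tbr2 list.

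The 10 Neurog2-rich sites with the smallest Neurog2 p-values included 7 of the 10 first peaks of the Neurog2 list. The first, chr11:114656396-114656979, held 179 Neurog2 tags with a fold change of 38.2. Its Tbr2 peak, chr11:114656221-114657080, held 126 tags with a fold change of 34.2 and was 441st in the Tbr2 list. The next of the 10 in that list was 1008th. Both factors had their highest tag numbers of the 256 sites there.

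The other 9 covered a wide range of Tbr2 tags. At chr7:119904266-119904635 there were 102 Neurog2 and 51 Tbr2 tags. At chr11:118834135-118834721 there were 125 and 39, and at chr5:111967527-111968178 there were 131 and 71. The site at chr2:154291614-154292069 held 115 and 58 tags. Numbers were closer at chr10:18996934-18997440 (115 and 99), chr4:107489918-107490620 (152 and 123), chr13:54419487-54419941 (113 and 93), chr6:120529739-120530501 (126 and 97) and chr13:26246801-26247309 (118 and 86). Thus Neurog2 tags varied from 102 to 179 over the 10 sites and Tbr2 tags from 39 to 126.

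The 3 peaks among the first 10 of the Neurog2 list that are not Neurog2-rich sites lay in Tbr2 peaks above the width limit. At chr4:39291289-39291793 the Neurog2 peak held 128 tags and the Tbr2 peak, 1210 bp wide, 158. At chr16:77852495-77853106 the numbers were 110 and 385, and at chr3:139549326-139549945 they were 116 and 275. Their tags would also have failed the rule.

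The 10 sites with the highest ratios had less filled Tbr2 peaks, with 21 to 51 tags. The highest ratio, 3.21, was at chr11:118834135-118834721, number 3 in the Neurog2 list, whose Tbr2 partner was 7601st in its list. Next came chr1:61359441-61359925 with 64 Neurog2 and 25 Tbr2 tags, chr15:78601235-78601848 with 92 and 38, a site on chromosome 18 with 82 and 34, and chr2:31304914-31305376 with 96 and 40. The remaining ones were chr4:136254668-136255188 (76 and 33), chr9:51956392-51956837 (61 and 27), chr6:99921394-99921855 (74 and 33), chr5:36250668-36251074 (43 and 21) and chr7:119904266-119904635 (102 and 51). Only the sites at chr11:118834135-118834721 and chr7:119904266-119904635 belong to both sets of 10. In the second set the Tbr2 partners stood between places 3988 and 14030 of the Tbr2 list, and the Neurog2 peaks between places 2 and 723 of theirs.

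**Figure D2:**
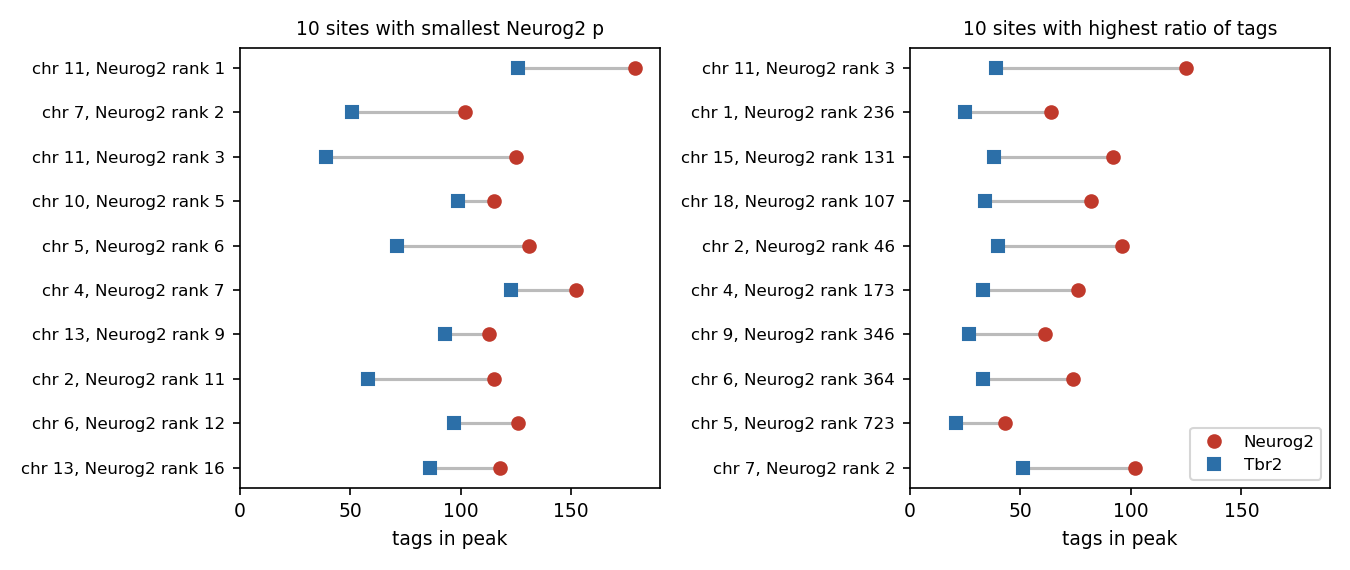
Neurog2 tags (red circles) and Tbr2 tags (blue squares) on a linear axis at the 10 sites with the smallest Neurog2 p-values (left) and the 10 with the highest ratios (right), with 1 row per site named by chromosome and place in the Neurog2 list. Tbr2 tags lie between 39 and 126 on the left and between 21 and 51 on the right.

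Peak widths differed with tags. Neurog2 peaks of the 256 sites had a median width of 361 bp (182 to 929) and their Tbr2 peaks one of 693.5 bp (317 to 1193). At the remaining shared sites the medians were 268 and 848 bp. In tags per 100 bp the Neurog2 median was 13.4 and the Tbr2 median 5.27 at Neurog2-rich sites, against 10.9 and 7.75 at the remaining shared sites. Per unit of width, most shared sites had the denser peak on the Neurog2 side: 1453 of the 1712 pairs, or 84.9%, did.

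The rule used the overlap of the peaks but not where they lay within each other. The distance between midpoints is still not independent of the rule. Most Neurog2 peaks lay inside their Tbr2 peak, where the difference in width bounds the distance, and widths differed with tags. At Neurog2-rich sites the midpoints of the peaks were a median of 44.5 bp apart (95% interval of the median from order statistics 36.5 to 52.0), and at the remaining shared sites 63.5 bp (60 to 68.5). Midpoints were within 50 bp in 142 of 256 sites, 55.5% (49.3 to 61.4), against 42.8% of all 1712 pairs and 40.6% of the remaining ones. They were within 100 bp in 85.5%, against 71.2% of all pairs, and more than 200 bp apart in 4 sites, against 6.95% of all pairs. The difference was not tested, since sites of 1 pair of libraries are not replicates.

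The smaller distance was also seen at matched Neurog2 tag numbers. Among pairs with 40 to 59 Neurog2 tags the median was 44.5 bp for 102 Neurog2-rich sites and 63.5 bp for 291 remaining ones. With 60 to 79 tags it was 43.0 bp (44 sites) and 62.8 bp (88), and with 20 to 29 tags 46.0 bp (19) and 61.5 bp (423). The 95% intervals of the medians overlapped within each of the 5 bands of tags. The Tbr2 peaks of the Neurog2-rich sites were also narrower and their Neurog2 peaks wider. The part of width in the result was not tested beyond the values within bands of either width. Within bands of Tbr2 width the medians of Neurog2-rich and remaining sites were 47.5 and 58.5 bp at 500 to 599 bp. At 600 to 699 bp they were 39.0 and 62.0 bp, and at 700 to 799 bp 41.5 and 49.0 bp. In wider Tbr2 peaks they were 37.2 and 50.5 bp at 800 to 899 bp, 56.5 and 69.5 bp at 900 to 999 bp, and 55.0 and 109.5 bp at 1000 to 1199 bp, where 11 Neurog2-rich sites lay. The Neurog2-rich sites had the lower median in each of the 6 bands of Tbr2 width, but in each band the 95% intervals overlapped. Within bands of Neurog2 width, the medians at 200 to 299 bp were 40.5 bp (25.5 to 54.5) and 62.25 bp (55.5 to 70.5). These intervals did not overlap. At 300 to 399 bp the medians were 47.5 and 59.5 bp, and at 400 to 499 bp 38.25 and 66.5 bp. At 500 to 599 bp they were 72.25 and 76.5 bp, and in each of these other bands the intervals overlapped. The deposited files give intervals without summits, so the midpoint stands in for the position of binding.

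**Figure D3:**
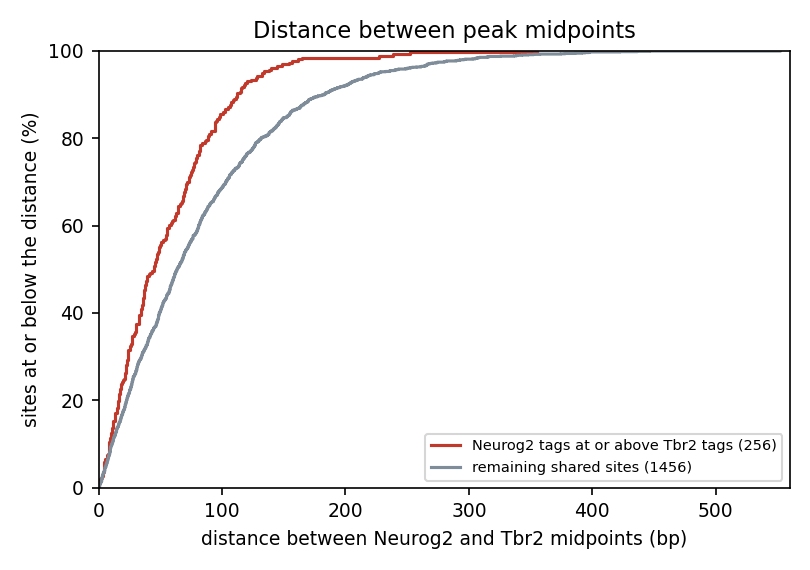
Cumulative share of sites (vertical axis, %) by distance between the Neurog2 and Tbr2 midpoints (horizontal axis, bp), for 256 Neurog2-rich sites (red) and 1456 remaining shared sites (grey). The red curve runs above the grey one, with 85.5% against 68.7% of sites at or below 100 bp.

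Most Neurog2 peaks of these sites lay wholly inside their Tbr2 peak, 240 of 256 or 93.8%, against 97.9% of all 1712 pairs. The other 16 reached past a Tbr2 edge. In 2 of the 256 the Neurog2 peak was the wider of the pair. These were chr15:78601235-78601848 and chr5:36250668-36251074, where the Tbr2 peaks ran from 78601297 to 78601812 and from 36250700 to 36251078. At chr15:56994317-56994637, with 36 Neurog2 and 30 Tbr2 tags, the midpoints were 355.5 bp apart, the most of the 256 sites. Each of the 256 sites had a Tbr2 peak of its own, and 3 of these Tbr2 peaks held a further Neurog2 peak. Of the 1456 remaining shared sites, whose Tbr2 peaks had the larger median width, 88 had a further Neurog2 peak in their Tbr2 peak. These counts are not independent of the rule, which sets each Neurog2 peak alone against its whole Tbr2 peak. The difference was not tested.

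Neurog2-rich sites occurred on all 19 autosomes. Chromosome 4 held the most, 28 of its 148 pairs, 18.9% (13.4 to 26.0). The share was highest on chromosome 17, where 13 of 57 pairs qualified, 22.8% (13.8 to 35.2), and lowest on chromosome 19 with 1 of 28, 3.57% (0.633 to 17.7). Chromosomes 3 and 10 held 6 each, 8.45% (3.93 to 17.2) and 8.33% (3.88 to 17.0). On each of the 19 autosomes the interval included the overall 15.0%, so no chromosome stood apart beyond counting error at these numbers.

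**Figure D4:**
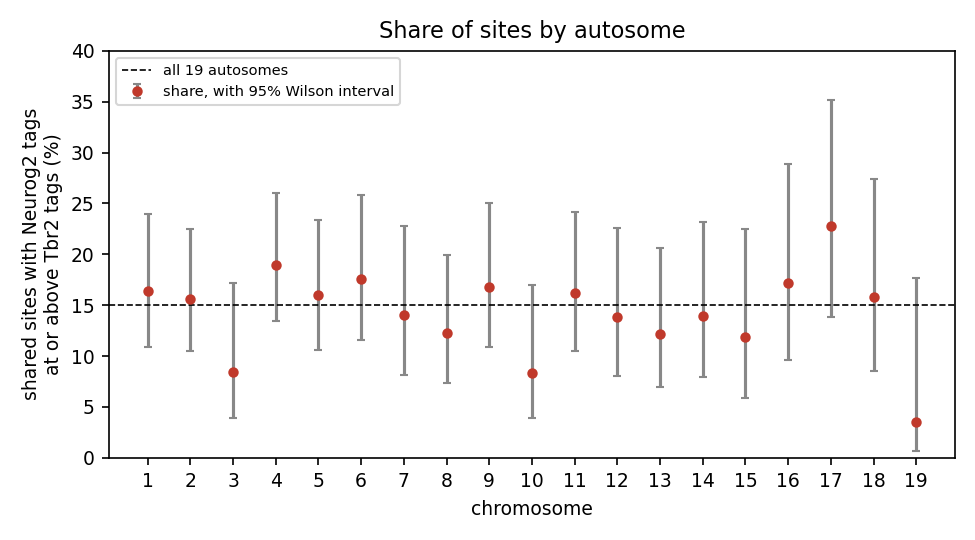
Share of autosomal shared sites that were Neurog2-rich (vertical axis, %) on each chromosome (horizontal axis), with 95% Wilson intervals as bars and the overall share of 15.0% as a dashed line. Each of the 19 intervals crosses the line.

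The surroundings of the sites were not part of the rule. Another Tbr2 peak lay within 25 kb of 137 of the 256 Neurog2-rich sites, 53.5% (47.4 to 59.5), near the 57.0% of all 1712 pairs. Another Neurog2 peak lay within 25 kb of 86 sites, 33.6% (28.1 to 39.6), against 27.2% of all pairs. Within 0.5 times that distance the shares were 21.9% (17.2 to 27.3) and 20%. The nearest other Tbr2 peak was a median of 21.3 kb away (15.6 to 28.8), against 18.5 kb (15.8 to 20.4) for the remaining shared sites. The nearest other Neurog2 peak was a median of 102.6 kb away (54.7 to 130.8), against 148.6 kb (131.5 to 168.6) for the remaining shared sites and 27.5 kb for the 410 shared sites in Tbr2 peaks of 1200 bp or more. For Tbr2 neighbours the intervals of the Neurog2-rich and remaining sites overlapped. For Neurog2 neighbours the medians differed, but the shares within the shorter distance were close. No difference was tested.

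A Tbr2 peak with more tags than the site's own lay within 25 kb of 87 Neurog2-rich sites, 34.0% (28.5 to 40), against 24.5% of all pairs. The rule sets no limit on Tbr2 tags but favours low numbers, and a peak with fewer tags can be exceeded by more neighbours. This share is therefore not independent of the rule, and the difference was not tested. At chr7:119904266-119904635, for example, the Tbr2 peak with 51 tags had a neighbour with 76 tags at chr7:119906107-119907086, which no Neurog2 peak overlapped.

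Neurog2-rich sites had Neurog2-rich neighbours more often than the remaining shared sites had. Another Neurog2-rich site was within 25 kb of 28 of them, 10.9% (7.68 to 15.4), against 4.67% of all 1712 pairs and 3.57% (2.73 to 4.65) of the remaining ones. Within 0.5 times that distance, the planned main distance, one was found for 16 sites, 6.25% (3.88 to 9.91), against 2.80% of all pairs and 2.20% (1.56 to 3.09) of the remaining ones. Among the 65 sites with a ratio of at least 1.5, none had another of the 65 within the shorter distance, which by the Wilson interval allows a share of up to 5.58%. Counted over neighbours, 28 of the 86 pairs found within 25 kb of a Neurog2-rich site were themselves Neurog2-rich, 32.6% (23.6 to 43.0). Around all 1712 pairs the share was 86 of 440, 19.5% (16.1 to 23.5), and around the remaining shared sites 58 of 354, 16.4% (12.9 to 20.6). The intervals treat neighbours as independent although each adjacent couple counts from both sides, and the difference was not tested.

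The 28 sites formed 14 groups of 2 within 25 kb. In 7 groups the midpoints were under 3 kb apart, and in all 14 the Neurog2 peaks lay in separate Tbr2 peaks. The first 5 in chromosome order show the arrangements. On chromosome 2 the sites at chr2:151792964-151793322 (48 Neurog2 and 28 Tbr2 tags) and chr2:151816697-151817190 (55 and 50) were 23.8 kb apart with no other peak between. On chromosome 4 the sites at chr4:75207657-75208073 (80 and 46) and chr4:75208403-75208677 (33 and 24) were 0.675 kb apart, next to a Tbr2 peak of 25 tags without Neurog2. Chromosome 5 had 2 groups, one at chr5:117019625-117019975 (48 and 31) and chr5:117042289-117042646 (57 and 52), and one at chr5:124784484-124784803 (57 and 56) and chr5:124801013-124801412 (74 and 42) with a Tbr2 peak of 42 tags between its sites. On chromosome 6 the sites at chr6:99918940-99919279 (60 and 54) and chr6:99921394-99921855 (74 and 33) were 2.52 kb apart. The groups on chromosomes 2 and 6 and the one at chr5:117019625-117042646 held nothing but the paired peaks, while Tbr2 peaks without Neurog2 stood in the groups at chr4:75207657-75208677 and chr5:124784484-124801412.

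**Figure D5:**
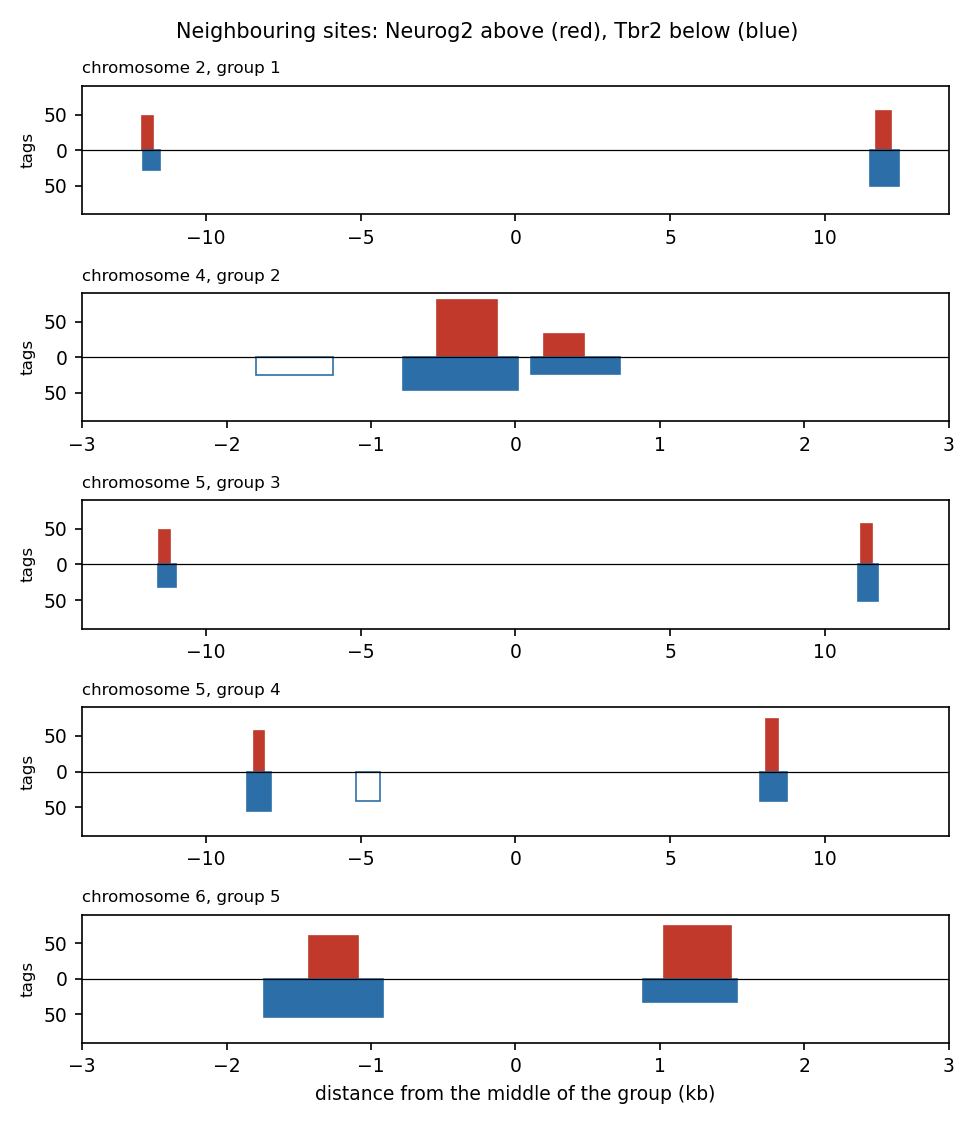
Peaks in the first 5 groups of neighbouring Neurog2-rich sites, with distance from the middle of the group on the horizontal axis (kb), Neurog2 tags as bars upwards and Tbr2 tags as bars downwards, and bar width as peak width. Filled bars are the Neurog2-rich sites and open bars other peaks. Filled bars reach further on the Neurog2 side by construction, for example with 80 and 46 tags on chromosome 4.

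The other groups with midpoints under 3 kb apart were chosen after their values were seen, and some of them also held a shared site outside the set. On chromosome 16, chr16:16559498-16559826 (55 and 41) and chr16:16560158-16560477 (38 and 27) lay 0.656 kb apart and held no further peak. On chromosome 9, chr9:51956392-51956837 (61 and 27) and chr9:51957390-51957870 (75 and 51) lay 1.02 kb apart, near a shared site outside the set at chr9:51954397-51954559 with 16 Neurog2 and 17 Tbr2 tags. Also on chromosome 16, chr16:33734723-33735093 (65 and 46) and chr16:33735812-33736214 (67 and 60) stood beside a Neurog2 peak of 37 tags in a Tbr2 peak of 106 tags. On chromosome 17, chr17:15515789-15516112 (43 and 34) and chr17:15518414-15518785 (68 and 37) had a Tbr2 peak of 28 tags between them. A second group on chromosome 6 joined an unequal couple, chr6:100110637-100110979 (42 and 36) and chr6:100112949-100113583 (113 and 102), and at the weaker of these the Neurog2 fold change, 6.62, was below that of Tbr2, 7.57.

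The group on chromosome 13 at chr13:52015720-52026026 was chosen after its values were seen, because it held the most Neurog2 peaks of the 14 groups, 5 including flanks of 10 kb on either side. Its sites had 103 Neurog2 and 69 Tbr2 tags at chr13:52015720-52016259, and 48 and 43 at chr13:52025654-52026026. A further Neurog2 peak at chr13:52016283-52016719 lay in the Tbr2 peak of the first site but held 53 tags, fewer than the 69 of Tbr2. The 2 others, with 59 and 74 tags, lay in a Tbr2 peak of 1901 bp and 116 tags, above the width limit. Taken one by one, the Neurog2 peaks of this region stood on both sides of the line of equal tags. Where 2 of them shared a Tbr2 peak, each was set against all tags of that Tbr2 peak. Their Neurog2 tags were not added up, so the sides do not describe the Tbr2 peaks as wholes.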

How the data were processed

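The deposited values are the authors' own, per the file headers: for each peak a position, a fold change (a ratio over a control that is not stated), an FDR, a p-value and a number of tags, which are whole counts of reads per peak as deposited by the authors. The deposited score column held 750 throughout and was not used. The submitters' processing notes name Bowtie 0.12.3, MACS 1.4 and mm9, without roles. Neither labels nor headers state read depth, duplicate handling or the control for calling, so tags could not be scaled. The members, the gene lists and the comparisons were chosen with earlier results of these data known.

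Peaks were paired, counted and compared in Python 3.11.15 with pandas 2.3.3. Shares carry 95% Wilson intervals, medians 95% intervals from order statistics. Both cover counting error over sites only. No p-value was computed, since each factor has 1 library. The pairing was tested on simulated peaks. These had at most 1 Tbr2 peak per Neurog2 peak and the same Tbr2 width throughout. The width limit and the choice between partners were therefore not exercised. Named sites were the 10 with the smallest Neurog2 p-value, the 10 with the highest ratio, those at the threshold (equal tags, and the 5 highest ratios below 1) and the first 5 groups of neighbours. The bands of width and of tags were added after seeing the data. The planned motif search, distances to gene starts and gene lists needed an mm9 genome and were not run. The gene table at hand was of the build GRCm38.p6. Peak lists name no genes, so the tissue was not checked against markers.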

Additional observations from a re-analysis of the deposited data

How the results depend on the processing

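The number of Neurog2-rich sites depended on the measure that compared the factors. It was 256 by tags, 65 with a ratio of at least 1.5, 458 with a ratio of at least 0.75, 463 by the percentile of tags within each list, 793 by fold change and 1453 by tags per 100 bp. As shares of the pairs considered these were 15.0%, 3.8%, 26.8%, 27.0%, 46.3% and 84.9%. All 256 sites were among the 463 and the 1453, and 242 among the 793. For the 463 and the 1453 this follows largely by construction. The Neurog2 peak was the wider of the pair in only 2 of the 256 sites, and median tags were 30 in the Neurog2 list against 38 in the Tbr2 list. The share was 12.1% with no Tbr2 width limit, 17.8% with a limit of 1000 bp, 23.2% for Neurog2 p-values at or below 1e-10 and 17.0% with both FDR values at or below 0.01, as the files write them. The FDR limit did not act as a stricter p-value limit. At Neurog2-rich sites the deposited Neurog2 FDR was 0.1 at place 2 of the list by p-value and 0.0038 at place 1056. The limit of 0.01 thus left out some of the peaks with the smallest p-values. The median midpoint distance was 58.0 bp by tags per 100 bp and 60 bp by fold change. It moved less than its own interval under the other 10 alternatives. The share with another such site within 0.5 times 25 kb was 6.25% by tags (2.80% over all pairs, 2.20% over the remaining ones). Within 25 kb it was 10.9% by tags, against 4.67% of all pairs. The shorter distance gave 0% at a ratio of 1.5 (Wilson upper bound 5.58%), 14.52% by tags per 100 bp and 9.96% by fold change. For these sets the share over all pairs is not given. They hold 3.8%, 84.9% and 46.3% of the pairs, and a larger set has more neighbours by its size. These values therefore do not compare how closely the sites lie together. The cause of these shifts was not tested, beyond the larger or smaller sets that the looser and stricter limits leave by construction. Choosing the nearest Tbr2 midpoint changed nothing, since no Neurog2 peak overlapped more than 1 Tbr2 peak. Fold change and the inclusion of X and Y were added after seeing the data. Motif windows and distances to gene starts were not run. No paired analysis was possible because each factor has 1 library. Unknown depth limits the ratio of tags to an ordering of sites.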

Other observations

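Shared sites on the sex chromosomes were outside the rule. On X, 19 pairs had a Tbr2 peak under 1200 bp. In 5 of them, 26.3% (95% Wilson interval 11.8 to 48.8), Neurog2 tags equalled or exceeded Tbr2 tags. That interval includes the 15.0% of the autosomal pairs. The fullest of the 5 was chrX:163241110-163241602, with 85 Neurog2 tags and a fold change of 32.2, against 59 Tbr2 tags and a fold change of 19.6. The other 4 held 19 to 38 Neurog2 tags. On Y, 1 of 3 pairs met the condition, with 32 Neurog2 and 29 Tbr2 tags.

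Among the 410 autosomal pairs with a Tbr2 peak of 1200 bp or more, 1 had at least as many Neurog2 as Tbr2 tags. It lay at chr8:36996332-36997157, with 98 Neurog2 tags, in a Tbr2 peak with 94 tags, and the midpoints were 11.5 bp apart.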
